A study of Mus musculus with 12 samples.

Results

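The genes described here make cholesterol and fatty acids, or control that synthesis, or carry cholesterol out of the cell, or encode LXR receptors or their target Mylip. They were taken by symbol as 39 Entrez genes, and all 39 were found among the 27179 genes of the count table and passed the filter on low counts that left 13195 genes to test. By role they fall into 7 genes of the mevalonate steps, 11 of the sterol steps after farnesyl diphosphate and 6 of SREBP control. The rest are 9 of fatty acid synthesis and 6 of efflux, its LXR receptors and Mylip, called efflux genes for short. Mouse splenic B cells were followed through 6 stages with 2 libraries each, 12 in all. Naive cells were sorted directly from spleen by a gate that included TCRβ-negative, B220+, IgM+ and IgD-high, without any culture. The other 5 stages came from negatively isolated B cells given 25 μg/ml lipopolysaccharide (LPS, a bacterial ligand of Toll-like receptor 4). Undivided CD69+ cells with the highest label of CellTrace Violet (a dye diluted at each division) were sorted at 3, 10 and 33 h. Day 4 gave the last 2 stages, expanded B cells (CD22+, CD138-negative) and plasmablasts (CD138+, CD22-negative, dividing cells that secrete antibody). Mice were male C57BL/6 (on a Pep3b background), 6 to 12 weeks old. All activated cells were cultured in RPMI with fetal calf serum, a medium that naive cells never met, and day 4 cultures were seeded less densely than the shorter ones, so that stage, culture and seeding cannot be told apart.

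Total counts ran from 23026619 to 60585587 per library. The sum of 4 B cell markers (Cd79a, Cd79b, Ms4a1 and Cd22) was at least 1727 RPKM (reads scaled by exon length and by library size) in every library, and that of 4 plasma cell markers was 10120 to 10340 RPKM in plasmablasts against 744 to 884 in expanded B cells. All 4 B cell markers fell from naive cells to plasmablasts, with log2 fold changes of -1.52 (Cd79b) to -10.02 (Cd22), and Cd22, on which the day 4 cells were sorted, fell from expanded B cells to plasmablasts with -7.95. The 3 h replicates stood apart from each other: over the members, the log2 ratio of replicate 1 to replicate 2 had an SD of 0.563 and a median of -0.36, against SDs of 0.126 to 0.248 in the other stages. Mitochondrial genes took 5.68% and 8.47% of the counts of those libraries, 10.3% and 11.5% of those of the naive libraries and 4.94% to 6.89% elsewhere. The naive libraries also held RNA of other cells, since 11 macrophage and monocyte markers summed to 165 and 81.2 RPKM and 5 neutrophil markers to 280 and 103 RPKM. After activation the macrophage and monocyte sum was 3.78 to 19.6 RPKM with 8 or 9 of the 11 genes at 3 counts or fewer, and the neutrophil sum was at most 0.091 RPKM. Erythroid markers (4 genes) summed to 58.3 and 39.7 RPKM in naive cells and to at most 1.19 RPKM later. The sum of 6 T cell markers was 30.4 and 33.1 RPKM in naive cells and 5.85 to 17.3 RPKM later. In a sorted population, fewer cells that express a gene and less RNA per cell cannot be told apart.

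In a cell that lacks sterol, SREBP-1 and SREBP-2 leave the endoplasmic reticulum. As transcription factors they then switch on the genes of cholesterol and fatty acid synthesis. Scap escorts them, and the Insig proteins hold the complex back. When sterol is plentiful, oxysterols bind the nuclear receptors LXRα and LXRβ, which switch on the export pumps Abca1 and Abcg1, the lipid carrier Apoe and the ubiquitin ligase Mylip. Dividing lymphocytes need new membrane, and plasmablasts expand the endoplasmic reticulum in which antibody is folded.

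Promoters of 31 members were found in the RefSeq table (GRCm38.p6), as 42 sequences, and the 250 bases before each start were searched on both strands. The CCAAT box (CCAAT, or ATTGG on the other strand), which NF-Y binds beside SREBP in several sterol genes, was in 14 of the 15 sterol synthesis genes found, or 93.3%, against 37.5% of all 27025 genes. It was in 4 of 5 SREBP control genes, 2 of 6 fatty acid genes and 1 of 5 efflux genes. Hmgcs1 was the 1 sterol synthesis gene of 15 with the sterol regulatory element TCACNCCAC, which 1.22% of all genes hold. An E-box (CACGTG) was in 3 of the 15, against 6.86% of all genes, and the LXR element DR4 (AGGTCA repeated after a gap of 4 bases) was in none of the 31 members and in 0.0148% of all genes. A match describes the letters only. The Hmgcs1 window below shows this element in capitals, on the gene's strand and 137 bases before its start, at chr13:119690194-119690242.
Hmgcs1: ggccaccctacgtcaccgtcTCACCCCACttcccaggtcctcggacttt
The next windows show the CCAAT box nearest the start in capitals. Idi1 (chr13:8885572-8885605, plus strand), Cyp51 (chr5:4104702-4104746, minus strand), Msmo1 (chr8:64733609-64733653, minus strand) and Insig1 (chr5:28071176-28071220, plus strand) were called higher at 3 h, and Mvk (chr5:114444235-114444268, plus strand), Tm7sf2 (chr19:6067873-6067917, minus strand) and Ebp (chrX:8193543-8193587, minus strand) lower, so the box was present on both sides.
Idi1: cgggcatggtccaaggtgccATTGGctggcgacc
Cyp51: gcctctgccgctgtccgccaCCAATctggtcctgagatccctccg
Msmo1: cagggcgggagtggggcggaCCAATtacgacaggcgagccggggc
Insig1: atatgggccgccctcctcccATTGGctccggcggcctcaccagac
Mvk: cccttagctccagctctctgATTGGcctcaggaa
Tm7sf2: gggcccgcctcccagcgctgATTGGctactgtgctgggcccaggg
Ebp: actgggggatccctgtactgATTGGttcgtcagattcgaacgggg

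Across the 6 stages, 12 of the 18 sterol synthesis genes rose and 4 fell within 3 h of LPS. From naive cells to plasmablasts 17 of the 18 rose. Abca1, Abcg1, Apoe and Mylip fell at 3 h or 10 h and also from naive cells to plasmablasts. Changes between stages were called with edgeR's glmTreat, which asks whether a change exceeds 1.5-fold, at a Benjamini-Hochberg adjusted p under 0.05 over all tested genes. From naive to 3 h, 18 members rose and 9 fell, where 20.9% of all tested genes rose and 24.2% fell. From 3 h to 10 h, 9 rose and 8 fell (background 17.2% and 13.3%), and from 10 h to 33 h, 7 rose and 1 fell (10% and 4.41%). From 33 h to expanded B cells, 2 rose and 1 fell (6.87% and 3.56%), and from expanded B cells to plasmablasts, 4 rose and 3 fell (14% and 12.1%). From naive cells to plasmablasts, 24 rose and 7 fell, where 26.5% of all tested genes rose and 23.3% fell. Leaving out 3 h replicate 1 raised the members that fell from 3 h to 10 h from 8 to 15, and leaving out 3 h replicate 2 raised those that rose from 9 to 14.

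**Figure D1:**
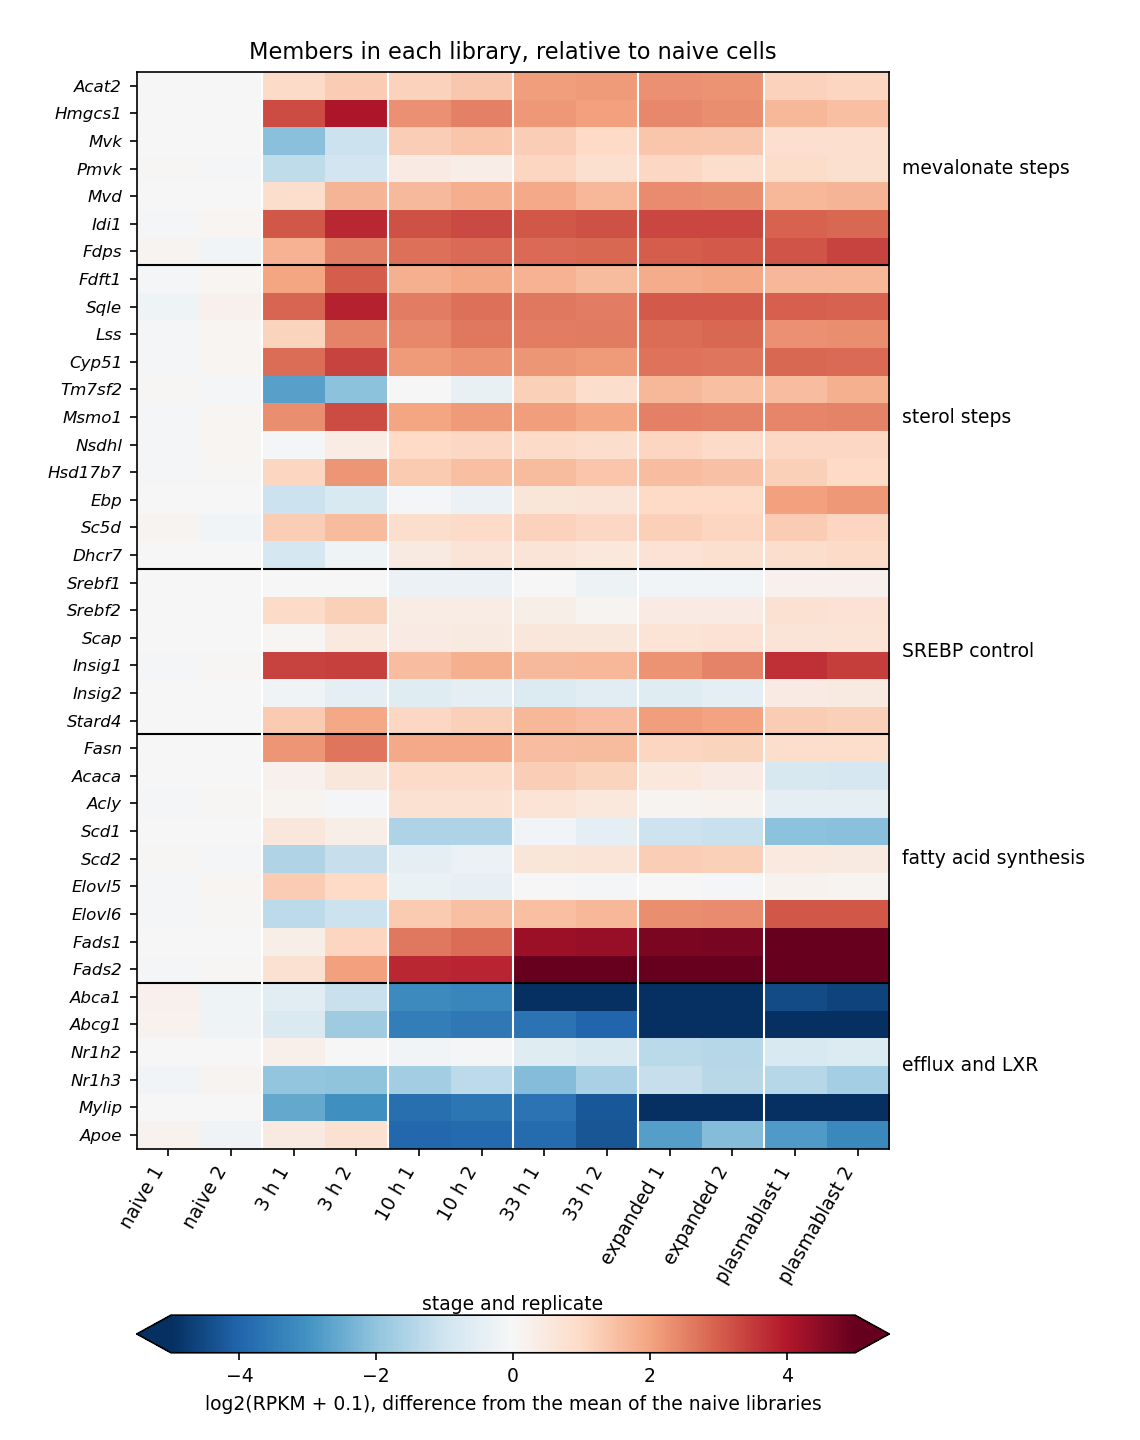
Each row is 1 of the 39 members and each column 1 of the 12 libraries, with stage and replicate below. Colour gives the difference in log2(RPKM + 0.1) from the mean of the 2 naive libraries, and differences beyond 5 take the end colours. Red dominates the mevalonate and sterol steps from 3 h on, and blue the efflux genes from 10 h on.

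The mevalonate steps turn acetyl-CoA into farnesyl diphosphate. Of the 7 genes, 5 rose and 2 fell from naive to 3 h, where 20.9% of all tested genes rose and 24.2% fell. The median log2 fold change was 1.37 against -0.03 over all tested genes. Hmgcs1 (Entrez gene 208715, chr13:119690351-119708260), which makes HMG-CoA, stood at 12.0 and 12.6 RPKM in naive cells, then 119 and 201 (3 h), 59.6 and 71.8 (10 h), 55.7 and 50.8 (33 h), 65.3 and 62.3 (expanded) and 39.5 and 35.1 (plasmablasts). Both 3 h libraries were above every other library, and both naive libraries below. Its log2 fold change was 3.71 ± 0.21 (SE; adjusted p = 7.6e-08) from naive to 3 h and -1.29 ± 0.19 (adjusted p = 0.0023) from 3 h to 10 h. Idi1, which isomerizes isopentenyl diphosphate, rose by a log2 fold change of 3.50 from naive to 3 h and then ranged over 31.5 to 58.9 RPKM, against 4.01 and 4.54 in naive cells. Fdps, which makes farnesyl diphosphate, rose by 2.24 and Mvd, the decarboxylase, by 1.37 on the log2 scale over the same step.

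Mvk and Pmvk, which phosphorylate mevalonate in turn, went the other way at first. Mvk (Entrez gene 17855, chr5:114444264-114460591) stood at 9.31 and 9.61 RPKM in naive cells, then 2.17 and 4.43 (3 h), 22.4 and 24.7 (10 h), 22.4 and 19.1 (33 h), 25.1 and 24.5 (expanded) and 17.2 and 17.1 (plasmablasts). The 3 h libraries were below all others, and all later ones were above naive. Mvk fell with a log2 fold change of -1.46 ± 0.22 (SE; adjusted p = 6.7e-04) and then rose by 2.78 ± 0.21 (adjusted p = 1.7e-06) from 3 h to 10 h. Pmvk did likewise, with log2 fold changes of -1.10 ± 0.14 and 1.48 ± 0.13 (adjusted p = 7.4e-04 and 2.1e-05).

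Acat2, the cytosolic thiolase that joins acetyl-CoA units, rose in 2 steps. Acat2 (Entrez gene 110460, chr17:12943042-12960725) stood at 5.24 and 5.28 RPKM in naive cells, then 10.2 and 12.7 (3 h), 12.0 and 13.5 (10 h), 22.7 and 23.3 (33 h), 25.8 and 25.5 (expanded) and 11.9 and 11.2 (plasmablasts). The 3 h and 10 h libraries overlapped, and plasmablasts returned to that range. Its log2 fold changes were 1.13 ± 0.12 (SE; adjusted p = 2.2e-04) from naive to 3 h, 0.85 ± 0.11 (adjusted p = 0.028) from 10 h to 33 h and -1.16 ± 0.11 (adjusted p = 1.9e-04) from expanded B cells to plasmablasts. The 10 h to 33 h call was lost in 5 alternatives, among them leaving out 10 h replicate 1 (adjusted p = 0.17), 33 h replicate 1 (adjusted p = 0.054) or 33 h replicate 2 (adjusted p = 0.087). From naive cells to plasmablasts 6 of the 7 genes rose, where 26.5% of all tested genes rose. Mvk was the exception, at a log2 fold change of 0.86 ± 0.20 (adjusted p = 0.058), and fits without 3 h replicate 1 or 2 called it (adjusted p = 0.0042 and 0.01). Pmvk, at 0.85 ± 0.13 (adjusted p = 0.016), lost the call without naive replicate 2 (adjusted p = 0.074) or plasmablast replicate 1 (adjusted p = 0.07), with library size alone (0.57, adjusted p = 0.42) and by DESeq2's Wald test (adjusted p = 0.11). Several of these genes share sequence with other annotated genes, so that their counts are uncertain. Of the transcript's 81-base stretches, 39.4% are also in other genes for Acat2 (mostly Acat3) and 28.7% for Idi1. The share was 79.3% for Fdps, mostly with a readthrough gene that overlaps it on the same strand. For Hmgcs1 it was 11.9%, with a gene that overlaps it on the opposite strand.

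The sterol steps join farnesyl diphosphate into squalene, close the rings and trim the result to cholesterol. Of the 11 genes, 7 rose and 2 fell by 3 h (20.9% and 24.2% of all tested genes), with a median log2 fold change of 1.79. Sqle (Entrez gene 20775, chr15:59315092-59331193), the squalene epoxidase, stood at 8.25 and 10.9 RPKM in naive cells, then 71.2 and 136 (3 h), 55.6 and 64.2 (10 h), 58.6 and 56.6 (33 h), 79.4 and 80.6 (expanded) and 75.2 and 73.4 (plasmablasts). Every activated library was above both naive ones, and the 3 h replicates lay on either side of the day 4 values. Its log2 fold change from naive to 3 h was 3.45 ± 0.26 (SE; adjusted p = 1.4e-06). Cyp51, the lanosterol demethylase, rose by 3.12, Msmo1, which removes the next methyl groups, by 2.88, and Fdft1, the squalene synthase, by 2.62 on the log2 scale. Lss, which closes the ring, rose by 2.01, Hsd17b7, a sterol ketoreductase, by 1.79 and Sc5d, the desaturase, by 1.41. Of the Fdft1 transcript, 24.4% of 81-base stretches are also in other genes, mostly Ctsb, which overlaps it on the opposite strand.

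Tm7sf2 and Ebp fell at 3 h and recovered afterwards. Tm7sf2 (Entrez gene 73166, chr19:6062821-6067850), a sterol reductase, stood at 2.32 and 2.12 RPKM in naive cells, then 0.258 and 0.456 (3 h), 2.21 and 1.67 (10 h), 5.17 and 4.17 (33 h), 7.26 and 6.52 (expanded) and 6.65 and 7.88 (plasmablasts). The 3 h libraries were the lowest and the 33 h and day 4 libraries exceeded every earlier one. Its log2 fold changes were -2.55 ± 0.29 (SE; adjusted p = 2e-05) to 3 h, 2.36 ± 0.29 (adjusted p = 8.9e-05) to 10 h and 1.26 ± 0.20 (adjusted p = 0.0054) to 33 h, and the last was lost without 10 h replicate 2 (adjusted p = 0.067) or 33 h replicate 1 (adjusted p = 0.054). Ebp, the sterol isomerase, is on the X chromosome (Entrez gene 13595, chrX:8185329-8193512). It stood at 16.9 and 16.4 RPKM in naive cells, then 7.95 and 9.87 (3 h), 15.4 and 13.7 (10 h), 25.2 and 26.1 (33 h), 33.4 and 33.3 (expanded) and 70.0 and 76.0 (plasmablasts). Plasmablasts were at over 2 times the level of any other stage. Ebp fell to 3 h (log2 fold change -0.89 ± 0.12, adjusted p = 0.0062), which was not called without 3 h replicate 1 (adjusted p = 0.058), and rose to plasmablasts from expanded B cells by 1.13 ± 0.11 (adjusted p = 1.7e-04). Between 10 h and 33 h it rose by 0.82 ± 0.11 (adjusted p = 0.044), a call lost in 13 alternatives, 9 of which left out a single library (adjusted p = 0.055 to 0.26).

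Nsdhl and Dhcr7, a decarboxylating dehydrogenase and the last reductase, were not called from naive to 3 h, at log2 fold changes of 0.17 and -0.51. From 3 h to 10 h Dhcr7 rose by 1.05 ± 0.16 (SE; adjusted p = 0.0057) and Nsdhl by 0.84 ± 0.14 (adjusted p = 0.042). Over the same step Cyp51 fell, with a log2 fold change of -0.92 ± 0.15 (adjusted p = 0.019). Without 3 h replicate 1 neither rise was called (adjusted p = 0.053 and 0.4), and without 3 h replicate 2 the fall of Cyp51 was not (-0.59, adjusted p = 0.46). Cyp51 also lost the call without 10 h replicate 1 (adjusted p = 0.096), and Nsdhl without 6 other libraries left out in turn (adjusted p = 0.05 to 0.095). In the 4 libraries compared, none of these changes was called (adjusted p = 0.054 for Dhcr7, 0.11 for Nsdhl and 0.076 for Cyp51). Library size alone lost the call of Cyp51 (-0.59, adjusted p = 0.47), and DESeq2's size factors that of Nsdhl (0.77, adjusted p = 0.097). DESeq2's Wald test lost those of Dhcr7 (adjusted p = 0.074) and Nsdhl (adjusted p = 0.65). From naive cells to plasmablasts all 11 sterol step genes rose, where 26.5% of all tested genes rose. Their log2 fold changes were 0.93 (Dhcr7) to 2.96 (Sqle). The call of Hsd17b7 at 1.12 ± 0.29 (adjusted p = 0.033) was lost without naive replicate 1 (adjusted p = 0.091) or plasmablast replicate 1 (adjusted p = 0.1). With libraries scaled by size alone the calls of Dhcr7 (0.66, adjusted p = 0.24), Nsdhl (0.78, adjusted p = 0.071) and Hsd17b7 (0.84, adjusted p = 0.15) were lost, and DESeq2's Wald test lost those of Dhcr7 (adjusted p = 0.079) and Hsd17b7 (adjusted p = 0.095). By stage of the highest mean, 6 of the 11 peaked at 3 h, 4 in plasmablasts and 1 in expanded B cells, whereas 4 of the 7 mevalonate genes were highest in expanded B cells, 2 at 3 h and 1 in plasmablasts.

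**Figure D2:**
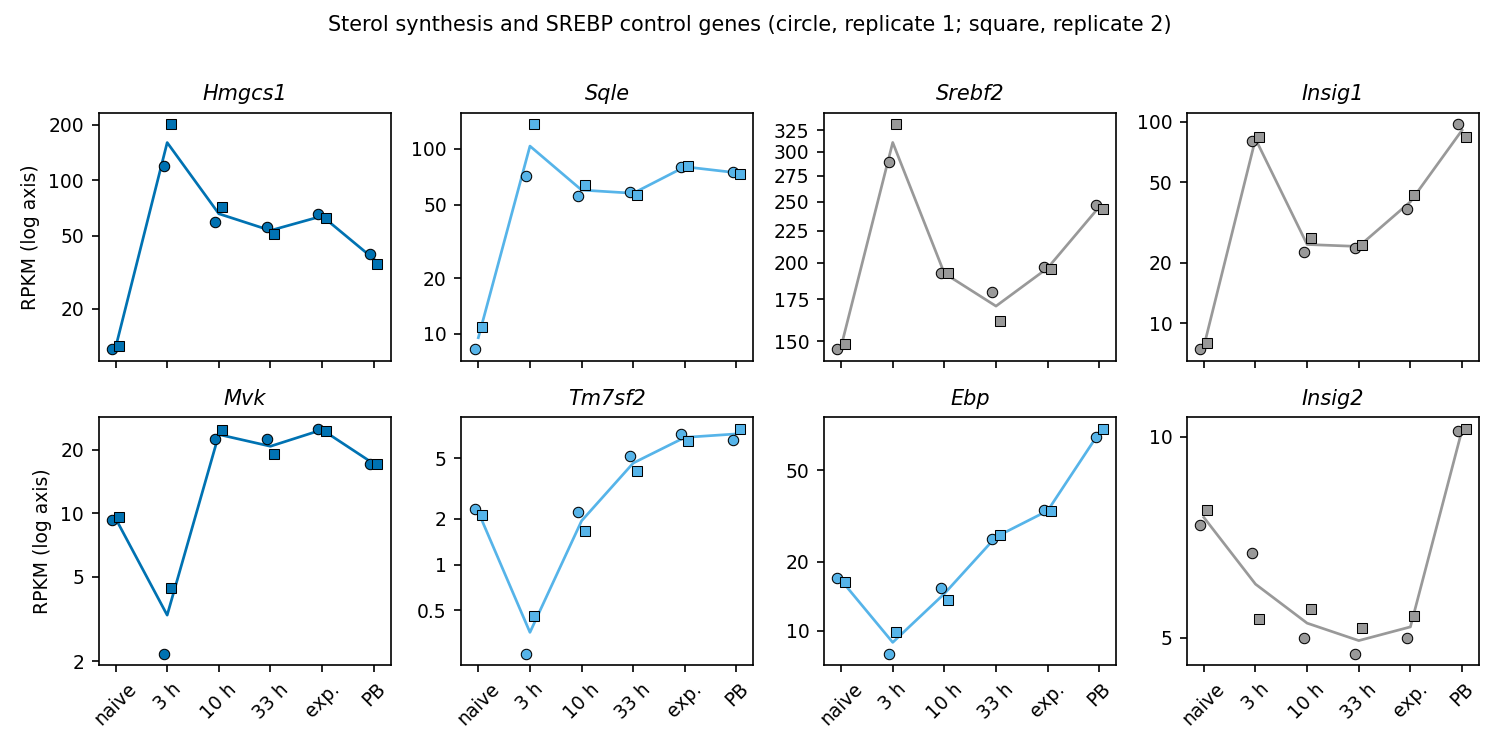
RPKM on log axes that differ between panels, for 8 sterol synthesis and SREBP control genes, by stage (exp., expanded B cells, and PB, plasmablasts). Points are single libraries and lines join stage means. Hmgcs1, Sqle, Srebf2 and Insig1 are up at 3 h, whereas Mvk, Tm7sf2 and Ebp are at their lowest there.

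Of the 6 genes of SREBP control, 3 rose from naive to 3 h and none fell (20.9% and 24.2% of all tested genes). Insig1 (Entrez gene 231070, chr5:28071412-28078662), which retains Scap in the endoplasmic reticulum and is itself an SREBP target, stood at 7.41 and 7.95 RPKM in naive cells, then 80.4 and 84.1 (3 h), 22.6 and 26.6 (10 h), 23.7 and 24.4 (33 h), 36.8 and 43.4 (expanded) and 97.2 and 84.5 (plasmablasts). It thus had 2 peaks, and the 3 h and plasmablast libraries did not overlap with any other stage. Its log2 fold changes were 3.42 ± 0.12 (SE; adjusted p = 4.2e-10) to 3 h, -1.74 ± 0.11 (adjusted p = 7.5e-07) to 10 h and 1.18 ± 0.11 (adjusted p = 1e-04) from expanded B cells to plasmablasts. Insig2 (Entrez gene 72999, chr1:121304353-121332662), its paralogue, stood at 7.37 and 7.77 RPKM in naive cells, then 6.69 and 5.33 (3 h), 4.99 and 5.52 (10 h), 4.73 and 5.17 (33 h), 4.99 and 5.38 (expanded) and 10.2 and 10.3 (plasmablasts). Plasmablasts were above every other library. Insig2 was called at that last transition alone, with a log2 fold change of 0.98 ± 0.13 (adjusted p = 0.0049), which fell to 0.65 (adjusted p = 0.28) when libraries were scaled by size alone.

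Srebf2 and Srebf1 encode the SREBPs themselves. Srebf2 (Entrez gene 20788, chr15:82147269-82205379), the sterol regulator, stood at 146 and 149 RPKM in naive cells, then 289 and 332 (3 h), 192 and 192 (10 h), 180 and 162 (33 h), 197 and 196 (expanded) and 247 and 244 (plasmablasts). All activated libraries were above the naive ones, and the 3 h ones were the highest. It rose to 3 h by a log2 fold change of 1.08 ± 0.08 (SE; adjusted p = 2.5e-05) and from naive cells to plasmablasts by 0.74 ± 0.08 (adjusted p = 0.027), and the latter call was lost in 6 alternatives, among them those without naive replicate 1 (adjusted p = 0.082) or plasmablast replicate 1 or 2 (adjusted p = 0.072 and 0.054). Srebf1 (Entrez gene 20787, chr11:60199084-60224186), which favours fatty acid genes, stood at 31.7 and 30.1 RPKM in naive cells, then 31.5 and 30.5 (3 h), 25.0 and 25.2 (10 h), 31.3 and 25.7 (33 h), 27.8 and 28.2 (expanded) and 36.0 and 35.8 (plasmablasts). Its stage means spanned 1.43-fold and no transition was called.

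Scap (Entrez gene 235623, chr9:110333288-110384949) stood at 28.9 and 28.6 RPKM in naive cells, then 30.1 and 40.0 (3 h), 37.8 and 39.2 (10 h), 43.0 and 42.4 (33 h), 45.8 and 47.6 (expanded) and 45.3 and 45.7 (plasmablasts). All activated libraries were above the naive ones, but the log2 fold change from naive to plasmablasts, 0.66 ± 0.11, did not exceed 1.5-fold by the test (adjusted p = 0.17), although the F-test without that threshold called it (adjusted p = 9.9e-05). Of its transcript, 9.48% of 81-base stretches are also in a gene that overlaps it on the opposite strand. Stard4, a carrier of cholesterol between membranes, rose to 3 h by 1.67 ± 0.16 on the log2 scale (adjusted p = 1.1e-05).

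Fatty acid synthesis starts with citrate, which Acly splits, and passes through Acaca and Fasn to palmitate. The Elovl enzymes lengthen fatty acid chains, and the Scd and Fads enzymes desaturate them. Of these 9 genes, 3 rose and 2 fell from naive to 3 h, where 20.9% of all tested genes rose and 24.2% fell. Their median log2 fold change was 0.42. Fasn, the synthase, stood at 25.1 and 26.1 RPKM in naive cells, then 120 and 162 (3 h), 95.1 and 95.8 (10 h), 75.6 and 76.5 (33 h), 54.4 and 55.1 (expanded) and 47.4 and 46.9 (plasmablasts). It was highest at 3 h and lower at each later stage, without reaching the naive level, and its log2 fold change to 3 h was 2.46 ± 0.12 (SE; adjusted p = 5.4e-09). Acly was called at no transition, with a log2 fold change from 3 h to 10 h of 0.73 ± 0.09 (adjusted p = 0.055).

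Acaca (Entrez gene 107476, chr11:84129635-84401651), the carboxylase that makes malonyl-CoA, stood at 5.68 and 5.59 RPKM in naive cells, then 6.59 and 8.46 (3 h), 11.2 and 11.0 (10 h), 13.4 and 12.2 (33 h), 8.08 and 7.50 (expanded) and 3.22 and 3.11 (plasmablasts). It was highest at 33 h and lowest in plasmablasts. Its log2 fold change was -1.30 ± 0.11 (SE; adjusted p = 3.3e-05) from expanded B cells to plasmablasts and -0.84 ± 0.11 (adjusted p = 0.013) from naive cells to plasmablasts, the latter lost without plasmablast replicate 2 (adjusted p = 0.059) and by DESeq2's Wald test (adjusted p = 0.1). Of its transcript, 46.2% of 81-base stretches recur in other genes, mostly a pseudogene.

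The desaturases Fads1 and Fads2, which put the double bonds into polyunsaturated chains, had the largest rises of all members from naive cells to plasmablasts. Fads2 (Entrez gene 56473, chr19:10062765-10101503) stood at 0.038 and 0.050 RPKM in naive cells, then 0.145 and 0.490 (3 h), 1.84 and 1.90 (10 h), 16.1 and 13.3 (33 h), 32.1 and 29.4 (expanded) and 33.0 and 32.3 (plasmablasts). Each stage up to expanded B cells lay above the one before it in both libraries. The naive values rest on 2 counts in each library, and the 3 h values on 4 and 23. The ratio of plasmablasts to naive cells was 751-fold (95% exact interval 293 to 2760, for counting error only). The ratio of 3 h to naive cells was 8.34-fold (2.91 to 32.8), and that call was lost without 3 h replicate 2 (log2 fold change 1.66, adjusted p = 0.23). Its log2 fold changes were 2.38 ± 0.29 (SE; adjusted p = 8.6e-05) from 3 h to 10 h, 2.98 ± 0.18 (adjusted p = 1.2e-07) to 33 h and 1.06 ± 0.15 (adjusted p = 0.011) to expanded B cells. The last was lost without 33 h replicate 2 (adjusted p = 0.088) or expanded replicate 1 (adjusted p = 0.099).

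Fads1 stood at 0.650 and 0.623 RPKM in naive cells, then 0.803 and 1.45 (3 h), 4.44 and 4.96 (10 h), 14.2 and 14.8 (33 h), 19.2 and 19.8 (expanded) and 24.2 and 24.7 (plasmablasts). It is the neighbour of Fads2 on chromosome 19, and its stages also did not overlap. The log2 fold changes were 2.00 ± 0.18 (SE; adjusted p = 7.8e-06) to 10 h and 1.63 ± 0.15 (adjusted p = 3.4e-05) to 33 h. Elovl6 (Entrez gene 170439, chr3:129532386-129638495), which lengthens palmitate, stood at 0.577 and 0.616 RPKM in naive cells, then 0.183 and 0.232 (3 h), 1.62 and 1.89 (10 h), 1.85 and 2.11 (33 h), 3.42 and 3.52 (expanded) and 5.94 and 5.94 (plasmablasts). The 3 h libraries were the lowest and plasmablasts the highest. It fell to 3 h, with a log2 fold change of -1.49 ± 0.19 (adjusted p = 1.8e-04), and rose to 10 h by 3.04 ± 0.17 (adjusted p = 8.4e-08).

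Scd1 and Scd2 are paralogues that make monounsaturated chains. Scd1 stood at 416 and 432 RPKM in naive cells, then 620 and 518 (3 h), 144 and 145 (10 h), 381 and 304 (33 h), 209 and 198 (expanded) and 102 and 99.9 (plasmablasts). Scd2 stood at 32.1 and 30.2 RPKM in naive cells, then 10.8 and 13.9 (3 h), 22.4 and 25.1 (10 h), 46.8 and 49.2 (33 h), 73.1 and 71.8 (expanded) and 43.7 and 42.0 (plasmablasts). Scd1 was lowest in plasmablasts and Scd2 at 3 h. At 3 h Scd2 fell (log2 fold change -1.33 ± 0.11, SE; adjusted p = 7.1e-06), whereas Scd1 was not called (0.42 ± 0.11). At 10 h Scd1 fell (-1.98 ± 0.11, adjusted p = 1.6e-07) and Scd2 rose (0.94 ± 0.11, adjusted p = 0.0034), and at 33 h both rose (1.25 ± 0.11 and 1.01 ± 0.11, adjusted p = 7.3e-05 and 0.002). In plasmablasts Scd1 fell again (-1.01 ± 0.11, adjusted p = 0.0011) and Scd2 was not called (-0.76 ± 0.11, adjusted p = 0.07). Elovl5, an elongase of polyunsaturated chains, rose to 3 h by 1.13 on the log2 scale and fell to 10 h with -1.49. From naive cells to plasmablasts Fasn, Elovl6, Fads1 and Fads2 rose, Acaca and Scd1 fell, and Acly, Scd2 and Elovl5 were not called. The rise of Fasn was lost with library size alone (0.61, adjusted p = 0.33).

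**Figure D3:**
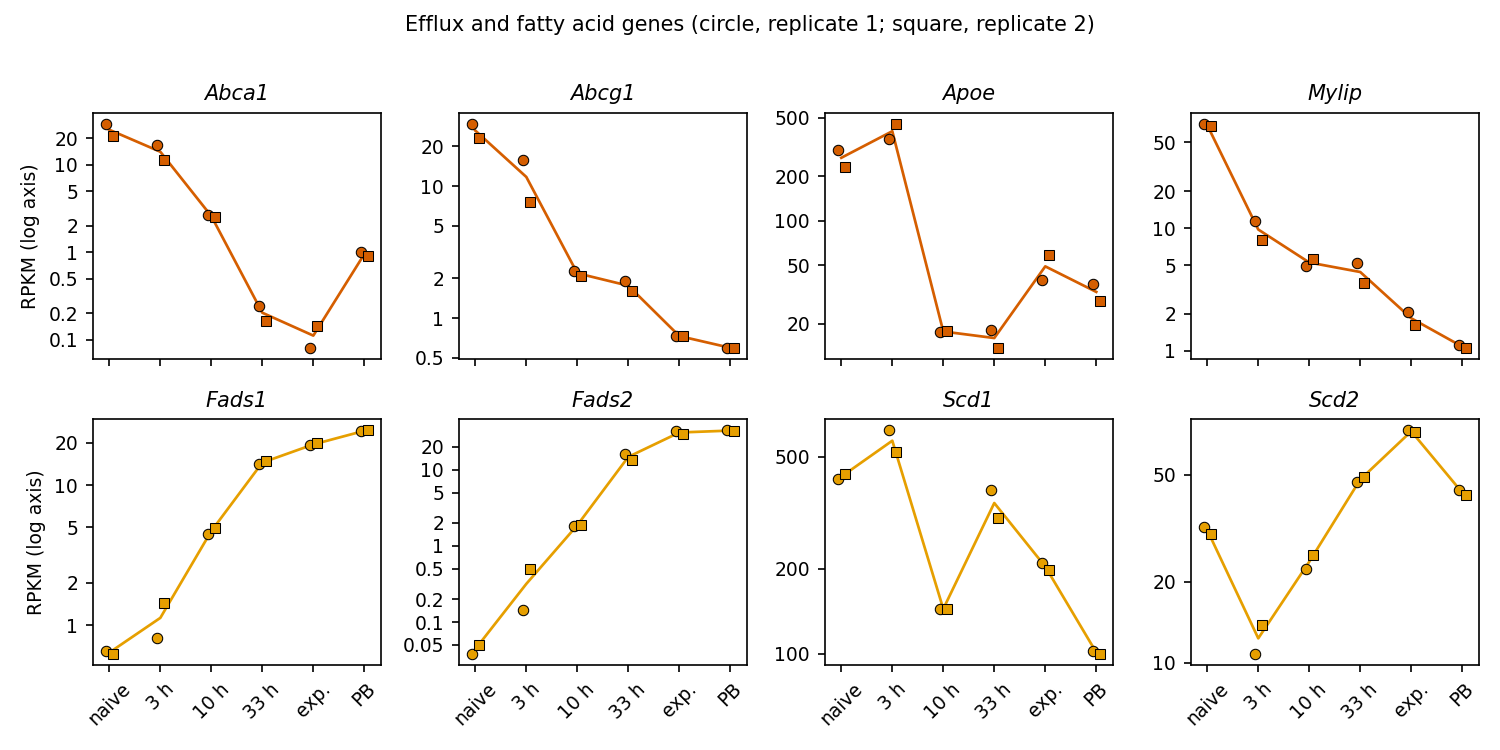
RPKM on log axes that differ between panels, for 4 efflux and 4 fatty acid genes, by stage (exp., expanded B cells, and PB, plasmablasts). Points are single libraries and lines join stage means. Abca1 runs from over 21 RPKM in naive cells to at most 0.243 RPKM at 33 h and in expanded B cells, with 1.01 and 0.898 RPKM in plasmablasts, and Fads1 and Fads2 climb.

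Of the 6 efflux and LXR genes, none rose and 3 fell from naive to 3 h, where 20.9% of all tested genes rose and 24.2% fell. From 3 h to 10 h 3 fell, where 13.3% of all tested genes fell. Abca1 (Entrez gene 11303, chr4:53030789-53159988), which hands cholesterol to lipid-poor apolipoproteins, stood at 29.1 and 21.1 RPKM in naive cells, then 16.8 and 11.4 (3 h), 2.66 and 2.52 (10 h), 0.243 and 0.165 (33 h), 0.081 and 0.142 (expanded) and 1.01 and 0.898 (plasmablasts). No neighbouring stages overlapped. It was not called from naive to 3 h (log2 fold change -0.84 ± 0.21, SE; adjusted p = 0.088), although 5 alternatives with the same fold threshold called it, and then fell, with -2.44 ± 0.22 (adjusted p = 1.4e-05) to 10 h and -3.63 ± 0.26 (adjusted p = 2.3e-06) to 33 h. From expanded B cells to plasmablasts it rose by 3.11 ± 0.31 (adjusted p = 2.6e-05), to a level still below that of 10 h. The naive libraries were those with the macrophage and monocyte markers, among them Lyz2 at 5032 and 1642 counts and Csf1r at 963 and 447. At 3 h, where Abca1 was still at 16.8 and 11.4 RPKM, Lyz2 was at 1 and 2 counts and Csf1r at 0 and 2. The part of those cells in the naive levels was not tested.

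Abcg1 (Entrez gene 11307, chr17:31057694-31117984), which exports cholesterol to high-density lipoprotein, stood at 29.5 and 23.3 RPKM in naive cells, then 15.9 and 7.57 (3 h), 2.28 and 2.10 (10 h), 1.93 and 1.60 (33 h), 0.731 and 0.733 (expanded) and 0.596 and 0.596 (plasmablasts). Its naive level came from the libraries that held macrophage RNA, whose part was not tested. The level of Abcg1 was lower at each stage than at the one before, without the return seen for Abca1. Its log2 fold changes were -1.18 ± 0.26 (SE; adjusted p = 0.017) to 3 h and -2.41 ± 0.28 (adjusted p = 1.2e-04) to 10 h, and the first was lost without naive replicate 1 (adjusted p = 0.079) or 3 h replicate 2 (adjusted p = 0.078) and by DESeq2's Wald test (adjusted p = 0.056). From 33 h to expanded B cells the change was -1.27 ± 0.31 (adjusted p = 0.069), and 9 alternatives called it.

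Apoe (Entrez gene 11816, chr7:19696244-19701310), the apolipoprotein that accepts exported cholesterol, stood at 303 and 233 RPKM in naive cells, then 358 and 453 (3 h), 17.5 and 17.9 (10 h), 18.2 and 13.7 (33 h), 39.4 and 58.6 (expanded) and 37.2 and 28.5 (plasmablasts). It was highest at 3 h. There 4 dendritic cell markers summed to 29.8 and 19.9 RPKM, against at most 1.57 RPKM in naive cells and at most 8.20 RPKM at 10 h, and most of that sum was Zbtb46, at 1679 and 1746 counts, while Siglech stood at 0 and 3 counts. Each neutrophil marker stood at 1 count or none, and Lyz2 at 1 and 2 counts. From 3 h to 10 h Apoe fell, with a log2 fold change of -4.52 ± 0.25 (SE; adjusted p = 2.5e-07), and from 33 h to expanded B cells it rose by 1.61 ± 0.22 (adjusted p = 0.0027). Over that last step the macrophage and monocyte sum went from 10.1 and 7.29 RPKM to 17.3 and 18.2 RPKM, with Cd68 called up of 11 markers and Lyz2, C1qa, C1qb and C1qc at 0 counts in both stages. Of 5 tested T cell markers Cd3g and Cd4 rose, from at most 1 count to at most 13, and of 4 dendritic cell markers Flt3 rose. The part of other cells in the levels of Apoe was not tested.

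Mylip (Entrez gene 218203, chr13:45389742-45411940), which marks lipoprotein receptors for degradation, stood at 70.4 and 67.6 RPKM in naive cells, then 11.5 and 8.04 (3 h), 4.94 and 5.57 (10 h), 5.21 and 3.58 (33 h), 2.07 and 1.62 (expanded) and 1.11 and 1.06 (plasmablasts). Mylip was already low at 3 h, where Apoe was not. It fell with a log2 fold change of -2.83 ± 0.19 (adjusted p = 1.7e-07) to 3 h and of -1.26 ± 0.20 (adjusted p = 0.0094) from 33 h to expanded B cells, the latter lost without 33 h replicate 1 (adjusted p = 0.15) or expanded replicate 2 (adjusted p = 0.093).

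Of the receptors, Nr1h2 (LXRβ; Entrez gene 22260, chr7:44549616-44553968) was the abundant one, at 68.6 and 68.7 RPKM in naive cells, then 81.2 and 69.8 (3 h), 61.7 and 66.8 (10 h), 45.2 and 40.7 (33 h), 26.9 and 25.8 (expanded) and 40.8 and 42.3 (plasmablasts). It was lowest in expanded B cells, and its stage means spanned 2.86-fold. No transition was called in the main fit. The F-test without a fold threshold called falls to 10 h (log2 fold change -0.23, adjusted p = 0.047), 33 h (-0.58, adjusted p = 3e-04) and expanded B cells (-0.705, adjusted p = 1e-04). It also called the rise to plasmablasts (0.66, adjusted p = 6.7e-05), as did glmTreat in the 4 libraries compared (0.68, adjusted p = 0.048). From naive cells to plasmablasts the log2 fold change of Nr1h2 was -0.72 ± 0.10 (SE; adjusted p = 0.051), which 8 alternatives with the same fold threshold called. Nr1h3 (LXRα; Entrez gene 22259, chr2:91184061-91202829) stood at 0.439 and 0.557 RPKM in naive cells, then 0.054 and 0.047 (3 h), 0.080 and 0.139 (10 h), 0.033 and 0.095 (33 h), 0.168 and 0.129 (expanded) and 0.122 and 0.084 (plasmablasts). These rest on 31 and 30 counts in naive cells and 2 to 14 in later libraries. It fell 9.87-fold from naive to 3 h (95% exact interval 4.01 to 31.5, for counting error only; adjusted p = 6e-04), and the naive libraries were again those with macrophage RNA, whose part was not tested. From naive cells to plasmablasts 5 of the 6 genes fell, Nr1h2 being the exception, where 23.3% of all tested genes fell. In that contrast Mylip had the largest fall, with a log2 fold change of -5.99 ± 0.23 (adjusted p = 4.2e-10).

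Synthesis and efflux genes were set side by side within each library. The measure was the median log2(RPKM + 0.1) over the 18 sterol synthesis genes minus that over the 6 efflux genes. The latter include Mylip, Nr1h2 and Nr1h3, which do not themselves carry cholesterol. The 2 libraries of naive cells gave -2.35 and -2.05, and the later stages -0.28 and 1.31 (3 h), 2.56 and 2.65 (10 h), 2.89 and 3.31 (33 h), 4.45 and 4.57 (expanded) and 4.62 and 4.71 (plasmablasts). The efflux genes thus had the higher median in naive cells and the sterol genes in every library from 10 h on, while the 3 h replicates had opposite signs. The naive libraries also held RNA of other cells, among them macrophages, monocytes, neutrophils and erythroid cells. The part of those cells in the naive medians and in changes from naive cells was not tested. In fitted changes, the median of the sterol genes from naive to 3 h was 1.60 and that of the efflux genes -1.01, on the log2 scale. From 3 h to 10 h these medians were 0.26 and -1.65, so that the larger share of this step lay in the efflux genes. The remaining transitions gave 0.05 and -0.44, 0.23 and -0.82, and -0.11 and -0.42. From naive cells to plasmablasts they were 1.69 and -3.88. There 17 of 18 sterol synthesis genes rose (26.5% of all tested genes) while 5 of 6 efflux genes fell (23.3%). Library size alone ended the calls of Pmvk, Dhcr7, Hsd17b7 and Nsdhl among these, and DESeq2's Wald test those of Pmvk, Dhcr7, Hsd17b7 and Nr1h3 (adjusted p = 0.075). Because the genes were chosen with earlier results known, no p-value is given for these medians.

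**Figure D4:**
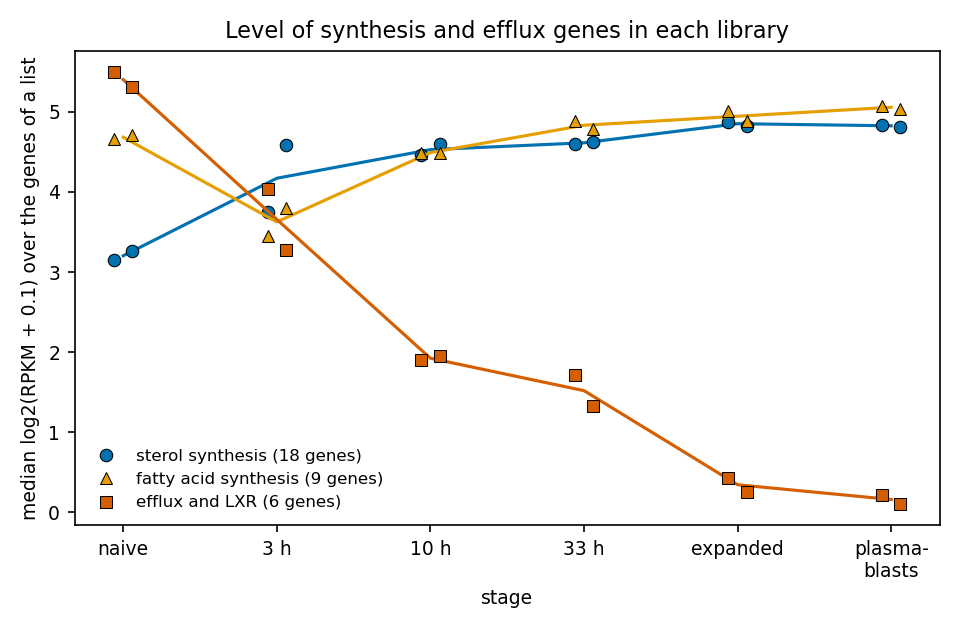
The median log2(RPKM + 0.1) over 18 sterol synthesis, 9 fatty acid synthesis and 6 efflux genes is plotted by stage. Points are single libraries and lines join stage means. The efflux median is above the sterol median in naive cells and below it from 10 h on, and the 3 h libraries of replicates 1 and 2 lie apart.

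**Figure D5:**
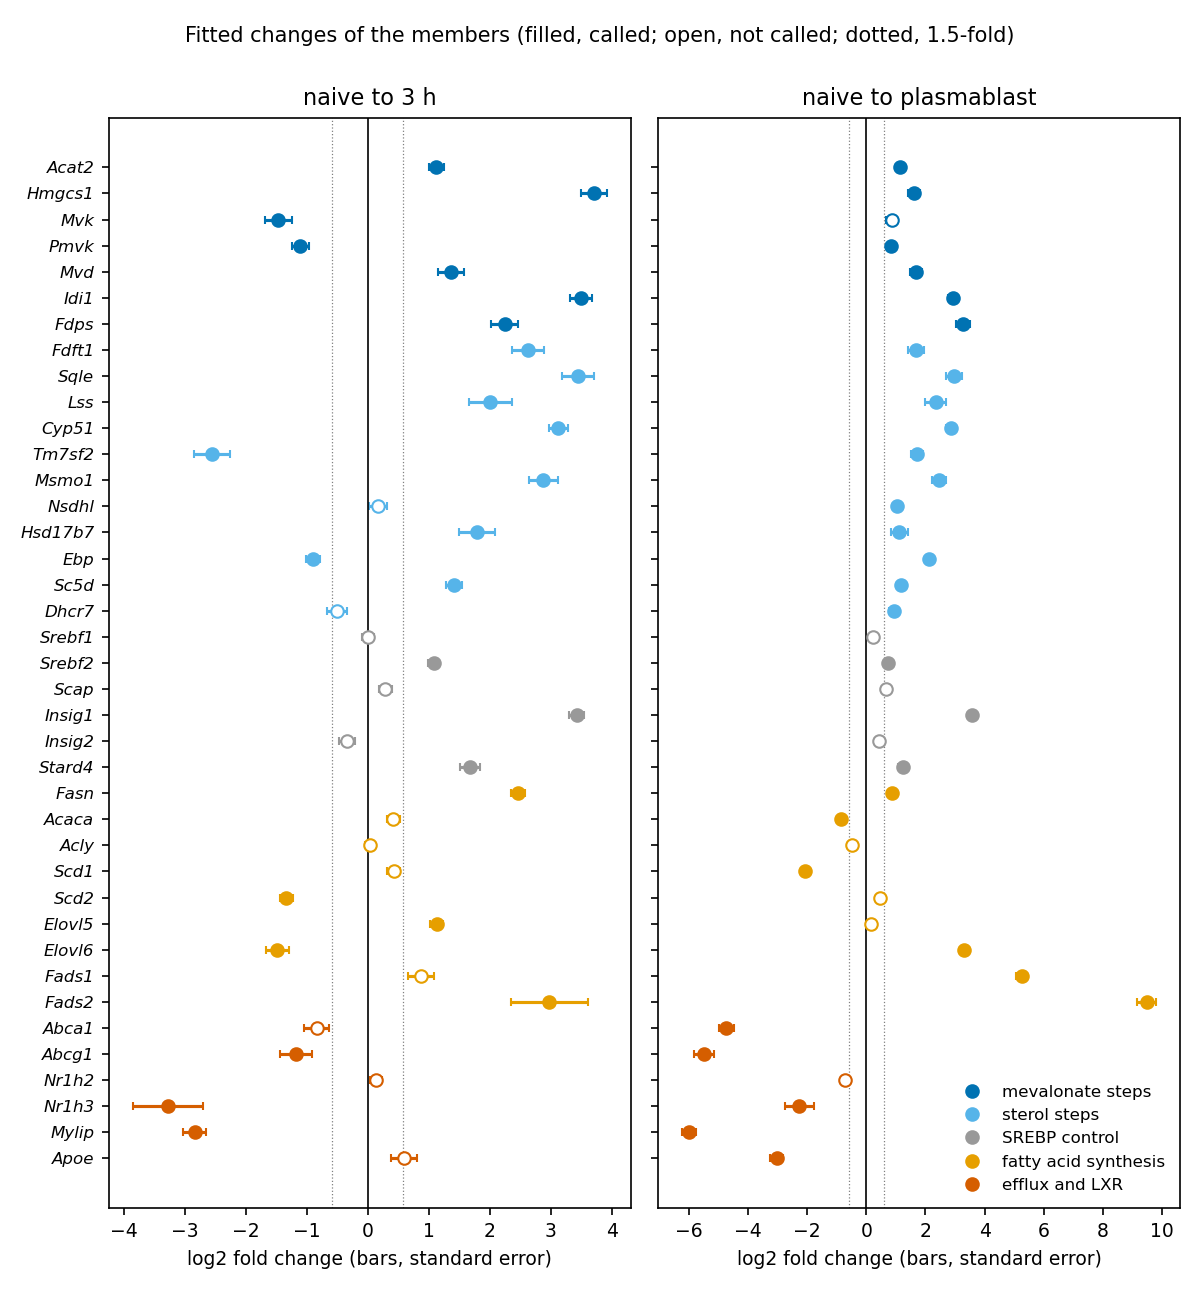
Fitted log2 fold changes of the 39 members from naive cells to 3 h (left) and to plasmablasts (right), with standard errors as bars and roles as colours. Filled points were called and dotted lines mark 1.5-fold. Among the 18 sterol synthesis genes, Mvk, Pmvk, Tm7sf2, Ebp and Dhcr7 (the last not called) lie left of 0 at 3 h, and all 18 lie right of it in plasmablasts.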

How the data were processed

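RNA-Seq of 12 libraries, 2 per stage, was analysed. The authors prepared TruSeq libraries and sequenced them on a NextSeq 500 instrument. They used Rsubread for alignment to mm10 and featureCounts for counting on its inbuilt Entrez genes, with CASAVA 1.8.2 also named in the submitters' notes. Whether strand was used, and how read pairs were counted, is not given in the sources used here. The deposited values are raw counts per gene, beside exon length (unit other). The files of single samples were not used. Of the IDs, 25275 of 27179 matched a RefSeq table (GRCm38.p6) with symbols and coordinates. Unmatched IDs (1904; 1.41% to 2.08% of counts), mitochondrial genes (15; 4.94% to 11.5%), rRNA genes (33; at most 8.69e-06%) and immunoglobulin variable segments (248; 0.242% to 5.19%) were removed. X and Y genes (1279; 1.82% to 2.39%), which the methods of the study drop, were kept, because Nsdhl and Ebp are X-linked.

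The fits used edgeR 4.0.16 and DESeq2 1.42.0 in R 4.3.3. After filterByExpr, TMM scaling and a robust quasi-likelihood fit (glmQLFit, method of earlier versions) of a one-way layout to all 12 libraries, glmTreat tested changes against 1.5-fold at a Benjamini-Hochberg adjusted p of 0.05 over 13195 genes. The SE is the log2 fold change divided by the square root of the F statistic. RPKM were computed from counts, exon lengths and TMM-scaled library sizes, with 0.1 added before log2. Stages at 3 counts or fewer were taken as the floor, which was 0.0495 to 0.13 CPM (counts scaled by the total count). Intervals are exact at 95% and cover counting error only. With 2 libraries per stage an exact permutation test cannot go below p = 0.333, so single values were not tested that way. The labels number the replicates but do not say which mice they came from, and p-values measure the spread between these libraries.

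The members and all lists were chosen with earlier results of these data known. Values in every library are given for the member of each role with the largest called change at each transition and for the genes of SREBP control and efflux (Stard4 excepted), with Fasn, Fads1, Scd1 and Scd2 added after their values were seen. Other genes are named from 2 further lists, up to 3 called genes per list and transition. Shared sequence was counted as 81-base stretches of GENCODE vM21 transcripts. The steps were tested on simulated data for the change from expanded B cells to plasmablasts alone. There glmTreat recovered 60% of the genes changed 2-fold and 92% of those changed 3-fold. As alternatives, libraries were scaled by size alone or by the size factors of DESeq2, and the others were DESeq2's Wald test, an F-test without a fold threshold, other filters on low counts (none, or at least 10 counts in every library) or on gene classes, other dispersion settings, a block for replicate number, a fit restricted to the 4 libraries compared, and leaving out each library. One gene of the B cell marker list is not reported here.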

Additional observations from a re-analysis of the deposited data

How the results depend on the processing

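No member reversed its direction while called. Over all members and comparisons, 2876 values from settings other than leaving out a library kept their side of the threshold, 103 became called and 29 lost the call, and when single libraries were left out these numbers were 2730, 38 and 40. The F-test without a fold threshold called 18 members down from 3 h to 10 h (30% of all tested genes), 3 down from 10 h to 33 h (22.2%), 11 up and 7 down from 33 h to expanded B cells (18.5% and 20.8%), and 8 up and 12 down from expanded B cells to plasmablasts (27.2% and 29.6%). From 33 h to expanded B cells, 3 members were down with no low count filter, where 641 of 17738 genes were. With library size alone, without robust mode, in the 4 libraries compared and with the replicate block, 2 members were down. In these settings 459 to 478 genes were down, of 12342 tested in the 4 libraries and 13195 otherwise. When at least 10 counts were asked of every library, 1 member was up (433 of 10309 genes). From expanded B cells to plasmablasts, 9 members were down with library size alone, where 3022 of 13195 genes were. With no low count filter 6 members were down (1734 of 17738 genes), as with 4 libraries (1788 of 12333 genes). The sterol minus efflux difference was 0.189 with 4 libraries and with at least 10 counts. The latter filter gave 6.404 from naive cells to plasmablasts, as it removed Nr1h3. The cause was otherwise not tested.

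Leaving out each library gave 17 to 19 up, 8 to 10 down and a difference of 1.76 to 3.45 from naive to 3 h. The same ranges were 8 to 14, 7 to 15 and 1.21 to 2.52 from 3 h to 10 h, 4 to 7, 1 to 1 and 0.40 to 0.51 from 10 h to 33 h, and 1 to 2, 0 to 2 and 0.88 to 1.16 from 33 h to expanded B cells. They were 4 to 4, 3 to 6 and 0.14 to 0.40 from expanded B cells to plasmablasts, and 21 to 25, 6 to 8 and 5.28 to 5.74 from naive cells to plasmablasts. The 4 up from 10 h to 33 h came without 33 h replicate 1, the 0 down from 33 h to expanded B cells without 33 h replicate 1 or expanded replicate 2, the 1 up without 33 h replicate 2 or expanded replicate 1, and the 6 down from expanded B cells to plasmablasts without either 3 h library.

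Library size alone moved the median log2 fold change of all genes to -0.24, 0.35, -0.08, -0.03, -0.38 and -0.25 in the order of the comparisons above. Replicate numbers were shared between stages, but the replicate differences correlated at -0.136 to 0.097 and only 2 pairs exist, so the numbers were not taken as pairing. The replicate block left the other counts of members within 1 of those reported. With the 3 h numbers crossed, which was chosen after seeing the data, 9 rose and 8 fell from 3 h to 10 h. No value could be had for Tm7sf2, Fads2 and Nr1h3 with at least 10 counts in every library, or for Nsdhl and Ebp with X and Y genes removed. Low counts limit Fads2 in naive cells and Nr1h3 after activation. Fads2 in naive cells and Nr1h3 at 3 h were at the floor of 3 counts or fewer.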

Other observations

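Of 24 other tested genes of lipid synthesis (upstream proteases, acyl-CoA synthetases, further elongation and desaturation enzymes and suppliers of precursors), 12 rose, none fell and 12 were not called from naive cells to plasmablasts, against a background in which 26.5% of all tested genes rose and 23.3% fell. Within 3 h of LPS, 5 rose and 3 fell, where 20.9% of all tested genes rose and 24.2% fell, with Aacs, which activates acetoacetate for lipid synthesis, up by 1.496 ± 0.12 (SE) and Acsl3, an acyl-CoA synthetase, up by 1.25 ± 0.14 on the log2 scale. Tecr, the reductase of chain elongation, had a log2 fold change of -1.39 ± 0.10 to 3 h, 1.23 ± 0.10 to 10 h and 1.40 ± 0.10 from expanded B cells to plasmablasts. Fads3, which lies beside Fads1 and Fads2, rose by log2 fold changes of 3.00 ± 0.45 from 10 h to 33 h, 2.82 ± 0.26 to expanded B cells and 2.05 ± 0.22 to plasmablasts. It rested on 3 and 7 counts at 10 h and on 609 and 869 in plasmablasts. Me1, malic enzyme, which supplies NADPH, rose from 33 h to expanded B cells by 3.09 ± 0.51, from 5 and 10 counts to 45 and 59.

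Of 21 tested genes that store, carry or oxidize sterols and lipoproteins, 5 rose and 6 fell from naive cells to plasmablasts, close to the background of 26.5% and 23.3%. At 3 h, 3 rose and 8 fell (background 20.9% and 24.2%), among them Lipa, the lysosomal lipase that frees cholesterol, with a log2 fold change of -2.44 ± 0.10 (SE). The lowest log2 fold change of the list at that step was -8.18. The naive libraries held macrophage and monocyte RNA, whose part in these falls was not tested. Gpr183, the receptor through which B cells follow an oxysterol, fell from 3 h to 10 h with -3.60 ± 0.16. Pltp, a phospholipid transfer protein, went down (-3.56 ± 0.28) from 3 h to 10 h, up (3.90 ± 0.27) to 33 h and down (-3.80 ± 0.38) from expanded B cells to plasmablasts. Lrp8, a lipoprotein receptor, rose from 10 h to 33 h by 2.11 ± 0.18, and its change from naive cells to plasmablasts was 5.001 ± 0.22.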
